A study of Homo sapiens with 18 samples.

Results

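The 8 SOX genes SOX1, SOX2, SOX4, SOX9, SOX11, SOX14, SOX17 and SOX21 were examined for 2 histone marks in V16D cells, out of 20037 protein-coding RefSeq genes placed on the GRCh38 assembly. A gene's locus was the gene plus 20 kb on each side, and every peak of the deposited lists that overlapped it was taken, together with the sites of both tables of differential sites that were assigned to a member or overlapped its locus. The members were named as a list, with earlier results of these data known, and no measured value enters the rule. V16D is a castration-resistant prostate cancer line derived from LNCaP. V16D/CTL cells carried a lentiviral control vector and V16D/H19 cells carried a lentivirus that overexpresses the long noncoding RNA H19. Both came from the 1 parental line, with no other allele or treatment named for either group, and 3 biological replicates of each were profiled by ChIP-seq for H3K4me3 and for H3K27me3, each against its own input. Expression from a lentivirus is ectopic and not under the gene's own promoter. The peak lists hold no RNA measurement, so neither the H19 level nor the RNA of any SOX gene was measured here.

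SOX proteins are transcription factors that bind DNA through a shared HMG box. SOX1 and SOX2 (group B1) keep neural progenitors undifferentiated, and SOX2 is also a core factor of pluripotent cells and is linked to lineage plasticity of prostate cancer. SOX14 and SOX21 (group B2) act mainly as repressors in the developing nervous system and counter the B1 factors. SOX4 and SOX11 (group C) act in neuronal differentiation and in many tumors, SOX9 (group E) acts in prostate epithelium, cartilage and neural crest, and SOX17 (group F) specifies endoderm and blood vessels. H3K4me3 marks the starts of active or poised genes, and H3K27me3 is laid down by Polycomb repressive complex 2 over silenced developmental genes. A start that carries both marks is called bivalent.

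The RefSeq promoter table of GRCh38.p14 held an entry for 4 of the 8 members. The 250 bases before each start are printed because the marks described next lay over or beside them, 5′ to 3′ along the gene's own strand, with each CG dinucleotide in capitals. SOX2 lies on the plus strand, chr3:181711675-181711924, inside the transcribed span of the long noncoding RNA SOX2-OT. SOX1 is on the plus strand, chr13:112066899-112067148, and SOX4 is on the plus strand, chr6:21593501-21593750. SOX21 is on the minus strand, chr13:94712546-94712795, and its upstream bases contain the start of the antisense transcript SOX21-AS1, 171 bases away.
SOX1: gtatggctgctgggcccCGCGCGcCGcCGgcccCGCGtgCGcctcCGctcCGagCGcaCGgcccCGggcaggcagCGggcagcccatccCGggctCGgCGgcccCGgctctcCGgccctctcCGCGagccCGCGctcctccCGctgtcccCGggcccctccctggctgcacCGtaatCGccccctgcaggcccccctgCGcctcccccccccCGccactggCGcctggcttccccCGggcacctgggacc
SOX2: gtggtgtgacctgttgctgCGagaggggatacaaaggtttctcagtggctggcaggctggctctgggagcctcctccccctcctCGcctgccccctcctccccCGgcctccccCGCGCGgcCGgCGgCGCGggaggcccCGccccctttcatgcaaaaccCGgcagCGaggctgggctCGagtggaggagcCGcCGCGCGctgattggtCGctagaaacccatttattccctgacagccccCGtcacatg
SOX4: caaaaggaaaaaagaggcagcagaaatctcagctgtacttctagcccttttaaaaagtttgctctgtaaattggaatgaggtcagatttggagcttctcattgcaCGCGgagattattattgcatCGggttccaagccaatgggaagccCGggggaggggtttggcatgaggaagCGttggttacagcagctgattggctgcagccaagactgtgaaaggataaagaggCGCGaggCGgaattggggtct
SOX21: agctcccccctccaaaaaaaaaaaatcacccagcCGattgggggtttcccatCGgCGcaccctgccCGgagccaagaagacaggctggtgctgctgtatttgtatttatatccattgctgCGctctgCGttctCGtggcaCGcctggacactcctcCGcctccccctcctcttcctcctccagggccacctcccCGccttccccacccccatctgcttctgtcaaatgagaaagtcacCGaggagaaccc
The SOX1 promoter held 31 CG dinucleotides and a GC content of 82.0%, and 10.9% of the 35116 RefSeq promoter entries held at least as many. SOX2 held 20 CG and SOX21 held 11, which 32.4% and 50.3% of the entries equaled or exceeded, and the median entry held 11. SOX4 had the lowest CG count of the 4, with 8. ACAAT, a form of the SOX-type core, was searched on both strands and matched none of these 4 windows and 24.6% of all entries. Other forms of the core were not searched. The CCAAT box, also searched on both strands, matched 4 times in SOX4, 1 time in SOX2, 1 time in SOX21 and not in SOX1, against 32.0% of all entries with a match.

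The H3K4me3 lists held 20000 to 21892 peaks per library. The H3K27me3 lists covered 44.9 to 62.0 Mb in V16D/CTL and 42.1 to 48.3 Mb in V16D/H19. Their peaks with a −log10 q of at least 3 numbered 6079 to 6661 in V16D/CTL against 3230 to 4022 in V16D/H19, so that the groups did not overlap in this count. The peak lists hold no read totals. Read depth per sample, which the study lists elsewhere, was not used here. At promoters, taken as 1 kb on each side of the start, all 7 prostate luminal markers had H3K4me3 in 6 of 6 libraries. The 3 basal markers and both blood markers (PTPRC and CD3E) had none. Of 7 neuroendocrine markers, 3 had H3K4me3 in 6 of 6 libraries, and the fibroblast marker COL1A1 carried both marks in 6 of 6 while DCN had no H3K4me3.

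The 8 promoters fell into 3 states. SOX4, SOX9 and SOX11 carried H3K4me3 in 6 of 6 libraries and no H3K27me3 peak anywhere in their loci. SOX2 and SOX21 carried both marks in all 3 replicates of each group, and SOX14 carried both in 2 of 3 V16D/CTL and 3 of 3 V16D/H19 replicates. No H3K27me3 peak covered the SOX2 start itself in any library. The nearest began 205 to 906 bases past it in V16D/CTL and 620 to 914 in V16D/H19, within the 1 kb taken as promoter. SOX17 had H3K27me3 at its promoter in 6 of 6 libraries, SOX1 in 2 of 3 replicates of each group, and neither had H3K4me3 there. The promoter state of SOX14 differed between groups only by the 1 V16D/CTL replicate without an H3K4me3 peak, and no other member's state did. With only peaks of a −log10 q of at least 3, SOX2 carried both marks in 3 of 3 V16D/CTL and 0 of 3 V16D/H19 replicates. SOX21 did so in 2 of 3 and 1 of 3, and SOX1 had no H3K27me3 at its promoter in any library. V16D/H19 had fewer such H3K27me3 peaks over the genome, as given above. Its H3K27me3 peaks within 1 kb of the SOX2 start had a −log10 q of 2.09, 2.66 and 2.61. At this cut, SOX5 also had both marks in 3 V16D/CTL and 0 V16D/H19 replicates. SOX7 had them in 3 and 1, SOX8 in 3 and 2, SOX18 in 2 and 0, and no SOX gene outside the members rose. The share of all genes was not computed.

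H3K27me3 covered less of all 5 loci that carried it in V16D/H19, and the 2 groups did not overlap at any of them. By this measure 16.9% of the 8640 genes with an H3K27me3 peak in at least 1 library were lower without overlap, 28.3% of those with a peak in all 6, and 36.6% of those covered by a mean of at least 5 kb, as all 5 members were. No member was higher, against 2.14% of genes. An exact permutation test of 3 against 3 libraries cannot go below p = 0.1, which each of the 5 loci reached, so none could pass 0.05. The H3K27me3 covered length of SOX1 was 9.36, 14.3 and 13.1 kb in V16D/CTL and 3.98, 7.99 and 6.16 kb in V16D/H19, or 12.3 ± 2.59 against 6.04 ± 2.01 kb (SD, n = 3, two-sided exact permutation p = 0.1). Every V16D/H19 value lay below every V16D/CTL value, and the mean was 50.8% lower. SOX2 was covered over 17.2, 17.6 and 16.9 kb in V16D/CTL and over 13.2, 12.7 and 12.3 kb in V16D/H19. Its replicates were the tightest of the 5, and the mean was 26.2% lower.

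**Figure D1:**
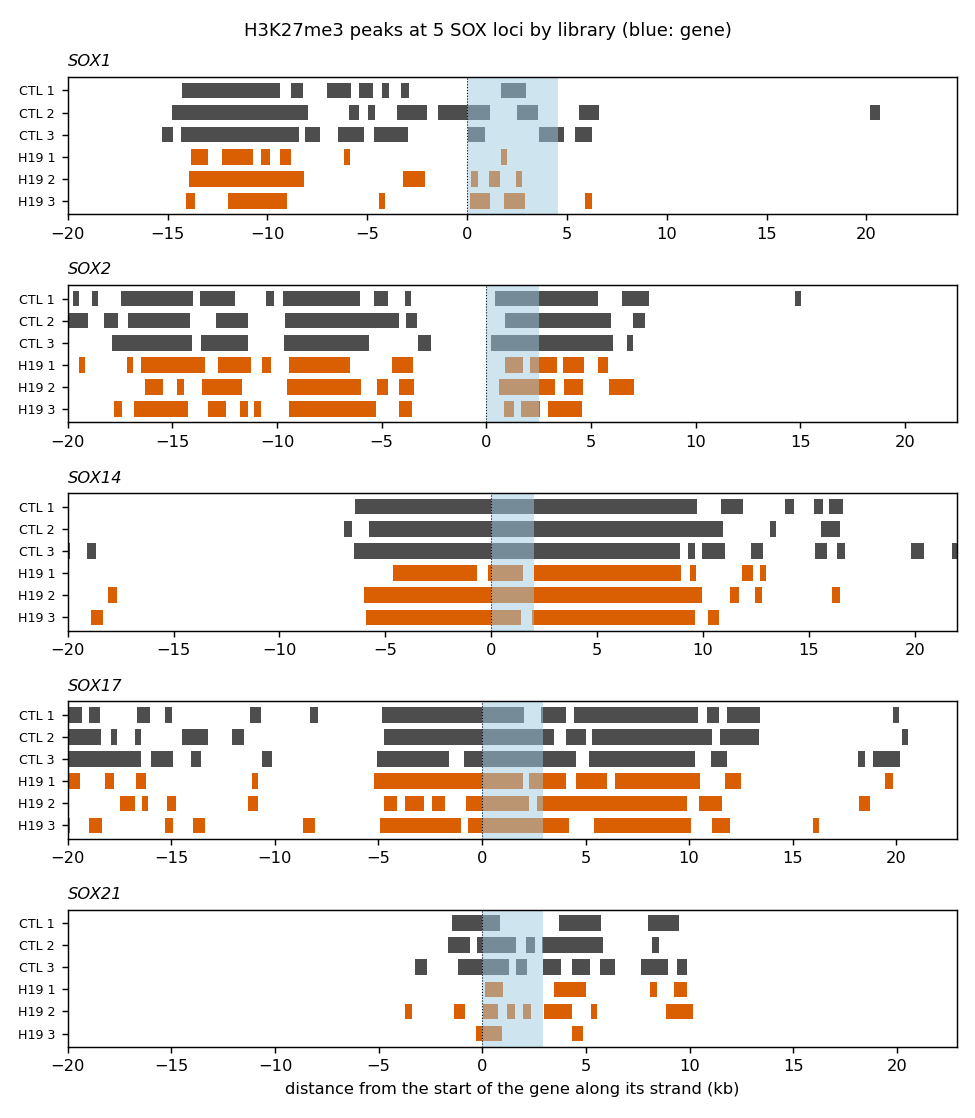
H3K27me3 peaks of each library (rows; grey V16D/CTL, orange V16D/H19, replicates 1 to 3) at the 5 SOX loci that carry the mark, by distance in kb from the gene's start along its strand, with the gene in blue. The peaks of SOX14 and SOX17 cover the start in each library, and at SOX1 and SOX2 the mark lies largely upstream.

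The B2 gene SOX14 had an H3K27me3 covered length of 18.7, 18.3 and 19.7 kb in V16D/CTL and 13.7, 17.5 and 16.1 kb in V16D/H19. The gap between the groups was small, with the highest V16D/H19 replicate less than 1 kb under the lowest V16D/CTL one, and the mean was 16.7% lower. SOX21, its group partner, was covered over 5.86, 6.72 and 7.90 kb in V16D/CTL and over 3.41, 5.37 and 1.84 kb in V16D/H19. The V16D/H19 replicates spread widely, and the mean was 48.1% lower. SOX17 was covered over 19.7, 21.2 and 22.1 kb in V16D/CTL and over 17.5, 15.97 and 16.96 kb in V16D/H19, a mean 19.9% lower.

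Set among the 4221 genes with H3K27me3 in all 6 libraries, the 5 loci split. The median gene's ratio of V16D/H19 to V16D/CTL mean covered length was 0.786. SOX2 (0.738), SOX14 (0.833) and SOX17 (0.801) lay near that median, with 41.1%, 58.1% and 53.2% of genes below them. SOX1 (0.492) and SOX21 (0.519) lay further down, with 10.1% and 12.2% of genes below. In fold over input, compared below, neither locus held a site at an unadjusted limma p under 0.05. When each library's locus was scaled to the covered length of its whole list, only SOX1 and SOX21 stayed without overlap, against 15.2% of genes with the mark in all 6 libraries. With only peaks of a −log10 q of at least 3, SOX1, SOX2 and SOX17 were lower without overlap, against 22.7% of the genes with such a peak in at least 1 library and 45.3% of those with one in all 6. At that cut SOX21 was covered over 0, 1.91 and 2.49 kb in V16D/CTL and 0, 1.43 and 0 kb in V16D/H19. With lists of equal length, all 5 loci were lower without overlap, against 28.8% of the 4011 genes with a peak in all 6 libraries. The mean difference was then -4.88 kb at SOX2, -2.88 kb at SOX14 and -4.13 kb at SOX17.

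**Figure D2:**
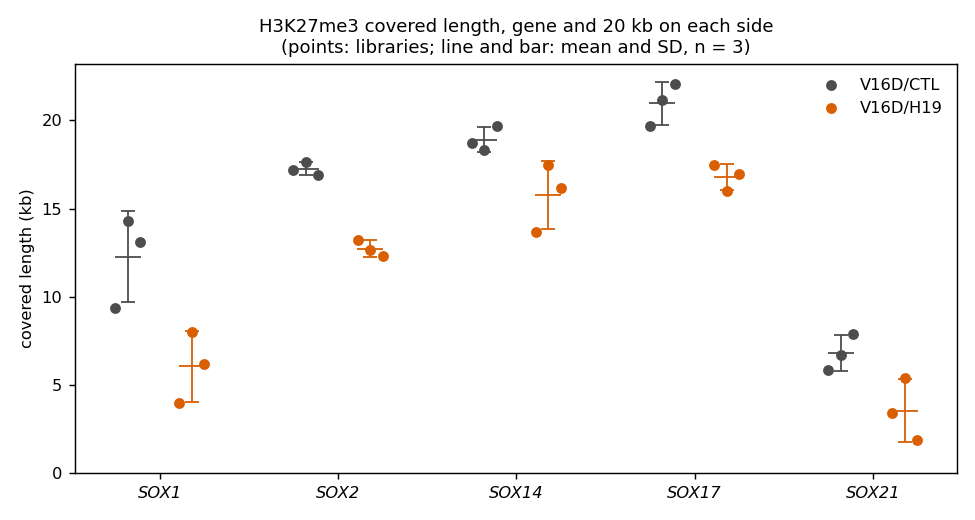
H3K27me3 covered length in kb (y axis) of the gene and 20 kb on each side for 5 SOX genes, with 1 point per library and the mean and SD of 3 replicates. The points of V16D/H19 lie below those of V16D/CTL at each gene, from 12.3 to 13.2 kb against 16.9 to 17.6 kb at SOX2.

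**Figure D3:**
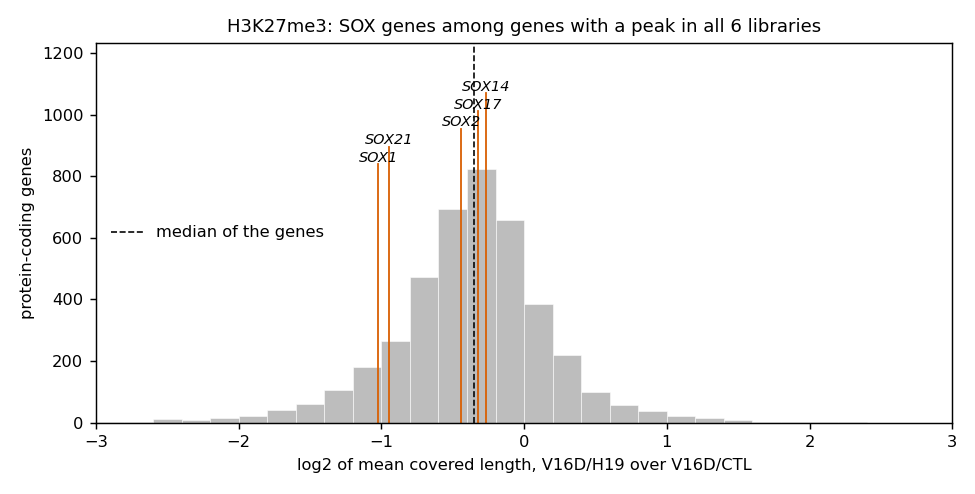
Log2 ratio of mean H3K27me3 covered length, V16D/H19 over V16D/CTL, for the 4221 protein-coding genes with a peak in all 6 libraries (grey bars, number of genes per 0.2 of log2), with the 5 SOX genes as orange lines and the median as a dashed line. SOX1 at -1.02 and SOX21 at -0.95 lie left of the median of -0.35, and SOX2, SOX14 and SOX17 lie close to it.

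The parts of the loci were also compared. Upstream of SOX1 the mark covered 8.13, 10.6 and 10.2 kb in V16D/CTL and 3.68, 6.80 and 3.76 kb in V16D/H19, while the values within the gene itself overlapped between groups. Beyond the end of SOX2 it covered 4.41, 4.04 and 3.83 kb in V16D/CTL and 2.35, 2.86 and 1.64 kb in V16D/H19. The flanks of SOX2 did not overlap between the groups and its gene body did. At SOX17 the mark covered 2.15 to 2.96 kb of the 2958-base gene in V16D/CTL and 2.56 to 2.96 kb in V16D/H19. The lower covered lengths lay in both flanks. Fold over input at the site that spans the SOX17 gene was also lower in V16D/H19, by a log2 difference of -0.27 (given below). Flanks of 20 kb are far longer than these genes, and the share of all genes that differ in such parts was not computed. The flank upstream of SOX21, which holds the SOX21-AS1 start, was covered over 1.45, 1.31 and 1.77 kb in V16D/CTL and over 0, 0.883 and 0.3 kb in V16D/H19.

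Single H3K27me3 peaks were shorter at 2 of the 5 loci without overlap, SOX2 and SOX21, where 20.1% of genes with the mark in all 6 libraries had a shorter longest peak by the same rule. The longest SOX2 peak measured 4.91, 5.41 and 5.84 kb in V16D/CTL and 3.05, 3.52 and 4.17 kb in V16D/H19. The longest SOX21 peak measured 2.32, 2.96 and 2.49 kb in V16D/CTL and 1.53, 1.35 and 1.27 kb in V16D/H19. At SOX14 it measured 16.1, 16.7 and 15.4 kb in V16D/CTL and 6.94, 15.9 and 7.70 kb in V16D/H19. There the peak was broken in 2 of 3 V16D/H19 replicates, and the second replicate had it in 1 piece. Without that replicate the count of loci with a shorter longest peak was 4, with SOX1 and SOX14 added, and the share of all genes was not computed.

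The height of the mark was compared as log2 fold over input at sites with a peak in all 6 libraries, by limma with Benjamini-Hochberg adjustment over 10889 H3K27me3 sites. Where a library had several peaks in a site, their mean fold weighted by width was taken. The 10 sites of the SOX loci gave 0 calls at an adjusted p under 0.05, as did the whole set, with 0% of sites lower and 0% higher. At an unadjusted p under 0.05, 4 of the 10 sites were lower, against 5.48% of all sites, and no member site was higher, where 319 of all sites were. The 4 were 2 sites of SOX2, the SOX14 site and the SOX17 site over its start. This count was 0 without V16D/H19 replicate 1, 2 without V16D/H19 replicate 3 or V16D/CTL replicate 3, and 3 to 5 without any other replicate. At the SOX17 site, from -5.2 to 13.4 kb of the start, the fold over input was 5.22, 5.68 and 4.79 in V16D/CTL against 3.96, 4.51 and 4.16 in V16D/H19, a log2 difference of -0.27 ± 0.094 (SE, limma adjusted p = 0.509). At the SOX2 site over the gene it was 4.29, 4.16 and 5.14 in V16D/CTL against 3.53, 3.85 and 3.53 in V16D/H19, a log2 difference of -0.27 ± 0.0999 (SE, limma adjusted p = 0.513). The groups did not overlap at either site, and neither passed the adjusted threshold. The log2 differences were -0.10 and -0.09 at the SOX1 sites and -0.21 and 0.04 at the SOX21 sites.

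**Figure D4:**
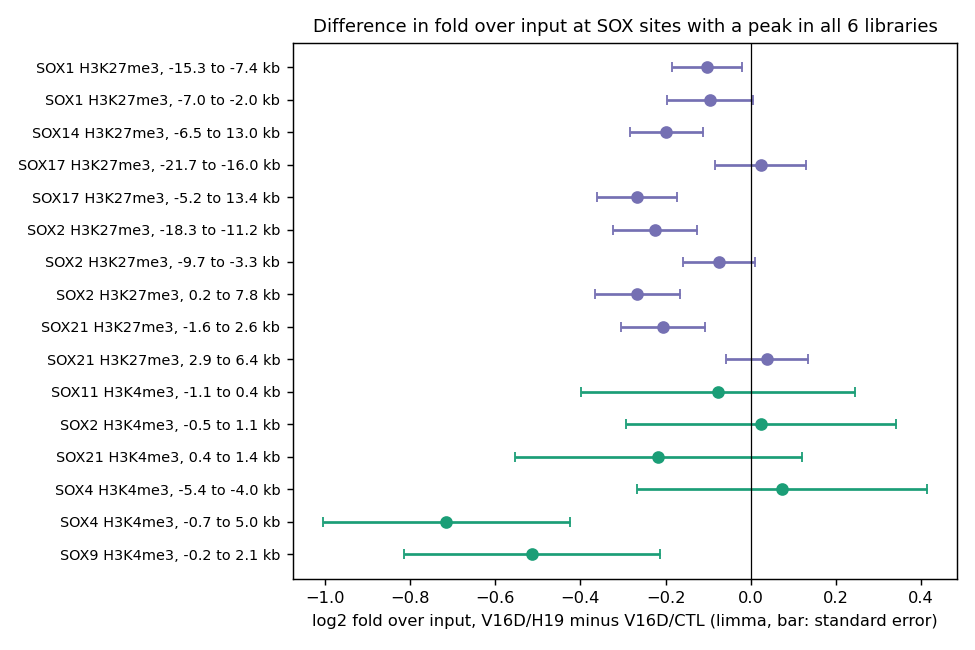
Difference in log2 fold over input, V16D/H19 minus V16D/CTL (x axis), with its limma standard error, at the 16 sites of the SOX loci that had a peak in all 6 libraries (purple H3K27me3, green H3K4me3), each named by its distance from the gene's start. The H3K27me3 sites run from -0.27 to 0.04, and the lowest difference among the H3K4me3 sites is -0.71 over SOX4.

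H3K4me3 covered slightly more of SOX9 and SOX11 in V16D/H19 and was otherwise within the spread of the replicates. These 2 of 8 members were higher in covered length without overlap, where 8.13% of 16243 genes were higher and 5.76% lower, and no member was lower. The single promoter peak of SOX11 measured 1.26, 1.26 and 1.29 kb in V16D/CTL and 1.49, 1.45 and 1.42 kb in V16D/H19, or 14.1% wider. That of SOX9 measured 1.83, 1.69 and 1.80 kb in V16D/CTL and 1.85, 2.23 and 2.05 kb in V16D/H19, or 15.0% wider. For SOX9 the lowest V16D/H19 width lay only just above the highest V16D/CTL width. Scaled to the covered length of its library's list, SOX9 overlapped between the groups and SOX11 did not.

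Peak height at these active genes was compared separately from width. The SOX4 peak, the broadest H3K4me3 peak of the 8 members at 4.63 to 5.52 kb, had a fold over input of 52.7, 49.9 and 53.6 in V16D/CTL against 30.5, 33.1 and 34.9 in V16D/H19. The groups did not overlap, and the log2 difference was -0.71 ± 0.29 (SE, limma adjusted p = 0.621 over 15781 sites). Its width did not follow: the covered length of the SOX4 locus was 5.92 to 6.81 kb in V16D/CTL and 6.23 to 7.16 kb in V16D/H19. The SOX9 peak had a fold of 56.3, 51.3 and 38.4 in V16D/CTL against 29.7, 46.9 and 30.2 in V16D/H19, with overlapping groups. At SOX11 the fold was 42.6, 19.4 and 25.4 in V16D/CTL against 31.5, 31.2 and 20.1 in V16D/H19, a wide spread in both groups. Across all H3K4me3 sites limma called 1 site lower, 0.00634%, and 0% higher, and none of the 6 sites of the SOX loci. At an unadjusted p under 0.05, only the SOX4 site among these 6 was lower, against 3.68% of all H3K4me3 sites, and it was not without V16D/CTL replicate 3 or V16D/H19 replicate 2.

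**Figure D5:**
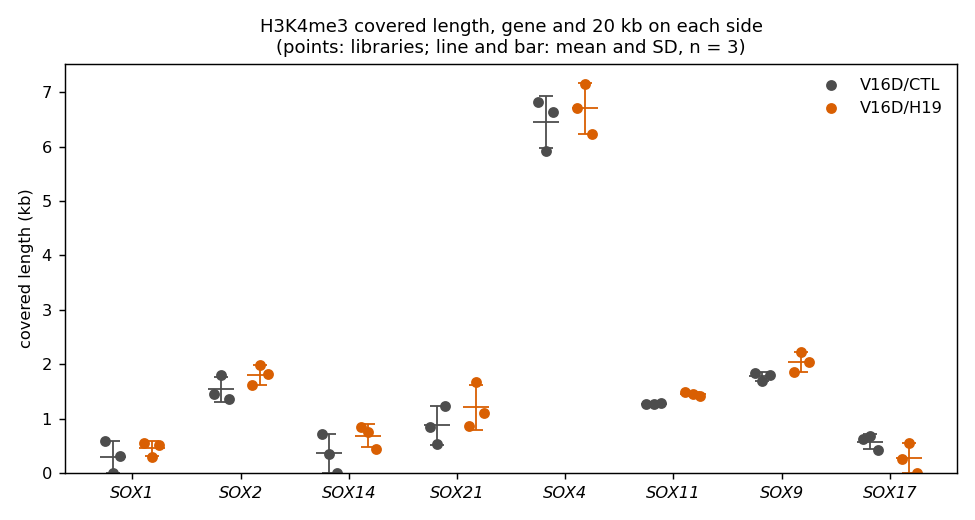
H3K4me3 covered length in kb (y axis) of the gene and 20 kb on each side for the 8 SOX genes, with 1 point per library and the mean and SD of 3 replicates. SOX4 stands at 5.92 to 7.16 kb in the 6 libraries, and the other genes stay under 2.3 kb.

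The members with both marks were compared next. The SOX2 start had a peak in 6 of 6 libraries with a fold over input of 20.2, 13.4 and 26.97 in V16D/CTL against 23.2, 21.6 and 16.9 in V16D/H19, with overlapping groups. At -11.6 to -11.2 kb from the SOX2 start lay a weak H3K4me3 peak of 215 to 343 bases, found in 1 of 3 V16D/CTL and 3 of 3 V16D/H19 replicates. Its fold over input was 4.97 in the V16D/CTL replicate and 4.35, 4.46 and 5.08 in V16D/H19, so where it was found its height was alike. The SOX14 promoter peak measured 0.723 and 0.351 kb in the first 2 V16D/CTL replicates, none was found in the third, and it measured 0.851, 0.760 and 0.445 kb in V16D/H19.

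SOX21 carried H3K4me3 on both sides of its start. On the SOX21-AS1 side, -1.0 to -0.1 kb from the start, the fold over input was 4.55 and 6.63 in V16D/CTL replicates 1 and 3 with no peak in replicate 2, and 8.44, 14.8 and 11.7 in V16D/H19. All 3 V16D/H19 values lay above the 2 V16D/CTL values. Lacking a peak in 1 library, this site was outside the main limma comparison, and the share of sites separated in this way was not computed. H3K4me3 covered length of the SOX21 locus overlapped between groups (exact permutation p = 0.4). On the gene side, 0.4 to 1.4 kb into SOX21, the fold over input was 5.68, 7.45 and 13.3 in V16D/CTL against 6.39, 6.81 and 9.07 in V16D/H19, with overlapping groups. SOX1 had no H3K4me3 at its start in any library, and its only peaks lay 5.3 to 6.1 kb from the start, beyond the end of the gene, or, in 1 library, about 4 kb upstream. At SOX17 the only H3K4me3 peak lay 12.2 to 12.9 kb downstream, with a fold of 15.5, 14.8 and 9.45 in V16D/CTL against 5.32 and 10.2 in V16D/H19 replicates 1 and 2, and no peak in replicate 3.

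The deposited tables of differential sites held 1140 H3K27me3 and 1857 H3K4me3 sites. Only their positions and the authors' mean concentrations, log2 values per group with no replicate spread, were used. Per the study, a DiffBind FDR under 0.05 defined a differentially bound region. The limma comparison above used another measure, fold over input averaged over called peaks, and called no site of the SOX loci. For H3K27me3, 7 listed sites overlapped the 5 SOX loci that carry the mark, each with a lower V16D/H19 mean, as had 91.5% of all listed H3K27me3 sites. The share of all genes whose loci overlap a listed site was not computed for either mark. The SOX2 locus held 2, both assigned there to SOX2-OT, with mean concentrations of 7.01 and 8.27 in V16D/H19 and 7.78 and 8.74 in V16D/CTL. SOX17 also held 2, at 8.70 and 7.01 in V16D/H19 and 9.21 and 7.53 in V16D/CTL. The sites of SOX1 (7.27 against 7.80), SOX14 (9.26 against 9.64) and SOX21 (7.12 against 7.73) made up the rest, with the V16D/H19 mean given first. A further site assigned to SOX21 lay 46.8 to 51.7 kb from its start, outside the locus.

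For H3K4me3, 3 listed sites overlapped the loci. The SOX11 promoter had a mean concentration of 7.82 in V16D/H19 and 7.36 in V16D/CTL, the SOX21-AS1 side of SOX21 had 5.21 and 3.90, and the site downstream of SOX17 had 3.89 and 5.34. The first 2 were higher in V16D/H19 and the third lower, where 76.0% of all listed H3K4me3 sites were lower. SOX17 lies on chromosome 8 beyond 45 Mb, where 58.5% of 357 H3K4me3 sites and 53.1% of 593 H3K27me3 sites of the limma comparison were lower, with median log2 differences of -0.08 and -0.01. Up to 45 Mb these medians were 0.08 and 0.03. The part of this regional difference in the SOX17 values was not tested.

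Of 11 other SOX genes, 7 carried H3K27me3, and 1 (SOX8) was lower without overlap, against 5 of the 5 marked members. Of all genes with the mark in all 6 libraries, 28.3% were lower by this rule. Scaled to the covered length of the list, 1 of 7 other SOX genes and 2 of 5 members were lower, against 15.2% of such genes. By that scaling, 2 other SOX genes were higher. With only peaks of a −log10 q of at least 3, 4 of 6 other SOX genes and 3 of 5 members were lower, against 22.7% of genes with such a peak. SOX8 was covered over 7.37, 10.7 and 9.84 kb in V16D/CTL and 4.58, 6.19 and 5.87 kb in V16D/H19. For H3K4me3, 1 of the 10 other SOX genes that carried it was lower, where 5.76% of all genes with this mark were. It was SOX18, a factor of blood vessel development, at 3.98, 3.81 and 4.04 kb in V16D/CTL and 3.24, 3.47 and 3.55 kb in V16D/H19. Median ratios of mean H3K27me3 covered length were 0.738 in the 5 marked members, 0.816 in the other SOX genes and 0.714 over all genes with a value. The authors' differential H3K27me3 sites also included SOX5, with a mean concentration of 7.56 in V16D/H19 and 8.04 in V16D/CTL. At SOX8 they had 9.13 and 7.05 in V16D/H19 and 9.51 and 7.71 in V16D/CTL.

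The partner list held 12 genes linked to SOX2 in pluripotent or neural stem cells. Of these, 7 carried H3K27me3, and all 7 were lower in V16D/H19 without overlap: LIN28B, PAX6, POU3F2, NES, UTF1, CHD7 and PROM1. Of all genes with the mark in all 6 libraries, 28.3% were lower by this rule, and the list was chosen with earlier results of these data known. Scaled to the covered length of the list, 3 of the 7 were lower without overlap (LIN28B, UTF1 and PROM1), against 15.2% of genes with the mark in all 6 libraries. With only peaks of a −log10 q of at least 3, 6 were. At that cut 22.7% of genes with such a peak in at least 1 library were lower, and 45.3% of those with one in all 6. The largest relative difference was at LIN28B, an inhibitor of let-7 maturation, at 4.42, 7.05 and 6.26 kb in V16D/CTL and 0.880, 1.08 and 2.29 kb in V16D/H19. POU3F2, a neural POU factor that partners with SOX2, was covered over 18.98, 19.9 and 20.9 kb in V16D/CTL and 17.8, 15.9 and 13.95 kb in V16D/H19. For PAX6, an eye and forebrain regulator, the values were 37.6, 36.6 and 34.0 kb against 27.1, 30.02 and 28.9 kb. The neural stem cell filament gene NES had a mean of 8.98 ± 1.24 kb in V16D/CTL and of 5.84 ± 1.51 kb in V16D/H19 (SD, n = 3, exact permutation p = 0.1). The pluripotency factors POU5F1, NANOG, KLF4, MYC and SALL4 had no H3K27me3 peak in their loci, and none of the 11 partner genes with H3K4me3 differed in it without overlap.

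Outside the family, the gene most like each member in covered length over the 12 lists, by Euclidean distance on log2(kb + 0.5), was SYT13 for SOX1 (distance 1.07), TMEM260 for SOX2 (0.49), ZNF654 for SOX4 (0.11), NAP1L2 for SOX9 (0.11), CD83 for SOX11 (0.13), GSX1 for SOX14 (0.99), LOC100129098 for SOX17 (0.53) and PTCHD1 for SOX21 (0.98). LOC100129098 lies within the SOX17 locus and shares its peaks. GSX1, a homeobox gene of the developing brain, and SYT13 were lower in H3K27me3 and higher in H3K4me3 covered length in V16D/H19, both without overlap. Taken alone, 28.3% of genes with H3K27me3 in all 6 libraries were lower, and 8.13% of genes with H3K4me3 were higher. The neighbors were chosen by these same covered lengths, so their likeness to the members follows from the choice.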

How the data were processed

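ChIP-seq peak lists of 12 libraries, 3 replicates for each of 2 marks and 2 cell populations, and 2 tables of differential sites were used. Per the labels and the methods, the authors called peaks with MACS2 in each library against its own input (narrow for H3K4me3, broad for H3K27me3) and compared groups with DiffBind and ChIPseeker, on hg38; versions and the aligner are not given in the sources used here. The deposited lists give fold over input, a linear ratio, and a −log10 q per peak, and the deposited tables give log2 mean concentrations. The authors' fold, p-value and FDR columns in those tables were not used.

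Gene positions came from RefSeq (GRCh38.p14), with strand from its promoter table or, by symbol, from GENCODE; the genome in hand was another build and was not used. Covered length was the bases of a locus under a peak, tested by a two-sided exact permutation over 20 assignments of 6 libraries (SciPy 1.17.1). A gene was called where the groups did not overlap. Peaks of a mark that shared a base were merged into sites; the width-weighted mean fold per library was log2-transformed, centered on the library's median and tested with limma 3.58.1 in R 4.3.3, with Benjamini-Hochberg adjustment and a threshold of 0.05. Library medians differed between groups by 0.05 (H3K4me3) and -0.05 (H3K27me3) before centering. Coverage and limma steps were tested on simulated data. The lists hold no read totals, and the depths that the study lists elsewhere were not used here, so the precision that depth gives was not estimated. Named genes were the members, 2 lists chosen for the family and for genes linked to SOX2 (the partner list), and the nearest gene in pattern. The members and lists were chosen with earlier results of these data known. Replicate numbers showed no pairing in covered length and were not used as pairs in the main tests. Sites in the tables start 1 base early and were shifted. Alternatives were windows of 10 and 50 kb, promoters of 2 kb, a −log10 q of at least 3, lists of equal length, other site rules, no centering, a replicate block and leaving out each replicate.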

Additional observations from a re-analysis of the deposited data

How the results depend on the processing

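The count of SOX loci lower in H3K27me3 covered length without overlap was 5 in the lists as deposited, in a window of 50 kb, in lists of equal length and without any 1 replicate (5 to 5). It was 4 in a window of 10 kb (without SOX17), 3 with only peaks of a −log10 q of at least 3 (SOX1, SOX2 and SOX17) and 2 when scaled to the covered length of the whole list (SOX1 and SOX21), an alternative chosen after seeing the data, as was taking the highest fold of a library in a site. Of genes with a peak in all 6 libraries, 28.3% were lower in the lists as deposited, 26.8% in a window of 10 kb and 32.0% in one of 50 kb. With lists of equal length 28.8% were, with the −log10 q cut 45.3%, and when scaled 15.2%. The count with a shorter longest peak was 2, and 2 to 4 without 1 replicate. Shares of all genes without 1 replicate were not computed for either mark. For H3K4me3, 2 members were higher, 1 when scaled to the covered length of the list and 2 to 3 without 1 replicate, and 0 to 1 were lower, the 1 being SOX17 without V16D/CTL replicate 3 or V16D/H19 replicate 2. With a −log10 q of at least 3, H3K27me3 lay at the promoter in all 6 libraries of 2 members in place of 4, and both marks lay there in at least 2 V16D/H19 replicates of 1 member in place of 3, with SOX2 and SOX21 dropped, and in at least 2 V16D/CTL replicates of 3 members as before. With a replicate block, loci whose 3 paired differences had 1 sign were counted. In longest H3K27me3 peak, 4 members were lower, and the share of all genes was not computed. In covered length, 5 members were lower in H3K27me3, and 4 were higher and 1 lower in H3K4me3. The shares of genes in covered length were 27.2% (H3K27me3 lower), 17.1% (H3K4me3 higher) and 12.02% (H3K4me3 lower). Correlations of same-numbered libraries' deviations from their group means ran from -0.036 to 0.046, so the numbers showed no pairing in this measure. Whether same-numbered libraries shared a batch was not tested. Limma called no member site under any alternative, with the replicate block included. The sign of small log2 differences changed with no centering (SOX17 upstream site -0.022, SOX21 downstream site -0.0074, both H3K27me3) and with the highest fold (SOX2 H3K4me3 site -0.042, SOX1 far upstream H3K27me3 site 0.075, SOX17 upstream site -0.026). Leaving out 1 replicate also turned the sign of H3K4me3 differences at SOX2 (-0.24 to 0.29), the upstream SOX4 site (-0.23 to 0.36), SOX11 (-0.32 to 0.20), SOX21 (-0.52 to 0.16) and in SOX4 covered length (-0.026 to 0.482 kb), and of H3K27me3 differences at the SOX17 upstream site (-0.072 to 0.089) and the SOX21 downstream site (-0.057 to 0.091). The cause of these changes was not tested. Read depth, not used here, limits every comparison of covered length.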
